A study of Mus musculus with 2 samples.

Results

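The genes of the mitogen-activated protein (MAP) kinase cascade and of the dual-specificity phosphatases were examined for histone H3 dimethylated at lysine 79 (H3K79me2) in resting mouse macrophages. They were taken by gene symbol from the GENCODE protein-coding genes of mm10: every Map4k, Map3k, Map2k, Mapk, Mapkapk and Dusp gene with a number. The pattern found 70 of 21938 coding genes, of which 5 were MAP4K, 18 MAP3K, 7 MAP2K, 13 MAPK, 3 MAPKAPK and 24 DUSP genes. The symbol pattern uses no measured value, but it was set with earlier results of these data known. The cells were primary bone-marrow-derived macrophages (BMDM) of strain C57BL/6J, left without stimulation, and H3K79me2 was mapped by ChIP-seq in 1 group of 2 biological replicates. Both labels carry 1 donor identifier, name the same control experiment and give 10 ng of DNA per library with a size range of 350 to 480 bp. Age was recorded as unknown and sex was not collected, and the labels do not say whether the replicates were separate animals or cultures, so differences between them may be technical. No stimulated cells were analysed here.

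In this cascade a MAP3K phosphorylates a MAP2K, which phosphorylates a MAPK on a threonine and a tyrosine of its activation loop. The MAP4Ks act above the MAP3Ks, the MAPKAPKs are kinases that MAPKs activate, and the MAPK phosphatases among the DUSPs remove both phosphates again. In macrophages the ERK, JNK and p38 branches carry signals from Toll-like and cytokine receptors to the inflammatory genes. H3K79me2 is placed by the methyltransferase Dot1l over the 5′ part of genes that RNA polymerase II transcribes, so a peak list of this mark describes chromatin and not kinase activity or RNA level.

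The authors deposited 4 peak lists: 1 of each replicate, 1 of the pooled reads and 1 replicated list. Marked genes are those with 200 bp or more of the first 3 kb under a list, counted from the outermost annotated 5′ end and stopped where the gene ends sooner. The replicated list is meant unless another is named. Folds are the authors' enrichment of a peak relative to control and serve here only to describe and rank peaks within a list. Replicate 1's list was shorter, with 22979 peaks over 63.5 Mb against 31577 peaks over 114 Mb in replicate 2. Depth is unknown because the lists give no read counts. Of the macrophage markers, 9 of 10 were marked, among them Spi1, Adgre1 and Cd68, and the tenth, Csf1r, had 18778 covered bases further inside the gene. None of the 31 markers of T and NK cells, B cells, neutrophils, dendritic cells and fibroblasts had a base under the replicated list, and only Cd4 was marked in a replicate list, with 589 bp of its first 3 kb in replicate 2.

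The promoters of 5 genes are shown, chosen after the values were seen, to go with the results on the p38 genes, on Mapkapk2, on Dusp1 and on Dusp6. Each sequence is the RefSeq upstream region on GRCm38.p6, written 5′ to 3′ on the gene's strand and stopped before the first base of any GENCODE exon of the gene. Mapk14 and Mapk13, neighbours on chromosome 17, encode p38α and p38δ. Capitals mark CG dinucleotides in both, at chr17:28691092-28691328 for Mapk14 and chr17:28769067-28769296 for Mapk13, on the plus strand.
Mapk14: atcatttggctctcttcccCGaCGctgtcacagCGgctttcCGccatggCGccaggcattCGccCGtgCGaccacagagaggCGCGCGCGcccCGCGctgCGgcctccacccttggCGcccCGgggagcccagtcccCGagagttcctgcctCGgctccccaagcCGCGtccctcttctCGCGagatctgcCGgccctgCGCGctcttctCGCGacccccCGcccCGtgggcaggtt
Mapk13: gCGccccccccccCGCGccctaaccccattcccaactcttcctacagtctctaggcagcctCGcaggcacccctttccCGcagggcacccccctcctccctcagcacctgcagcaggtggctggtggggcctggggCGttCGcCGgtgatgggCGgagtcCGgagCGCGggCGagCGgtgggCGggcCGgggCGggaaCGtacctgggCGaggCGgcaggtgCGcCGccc
The stretch upstream of Mapk14 held 30 CG in 237 bases and that of Mapk13 held 22 in 230 bases, and neither had a base under the replicated list. Mapkapk2 encodes the kinase MK2, and its upstream region lies at chr1:131097844-131098093 on the minus strand. No base of it lay under the replicated list. Capitals mark its match to the PU.1 letters GAGGAAGT, read on the reverse strand, and a link between these letters and the mark was not tested.
Mapkapk2: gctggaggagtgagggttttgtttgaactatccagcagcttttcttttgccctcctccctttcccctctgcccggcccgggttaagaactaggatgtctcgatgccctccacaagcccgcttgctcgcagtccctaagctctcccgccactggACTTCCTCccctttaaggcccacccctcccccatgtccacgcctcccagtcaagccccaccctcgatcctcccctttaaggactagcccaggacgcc
Dusp1 encodes a nuclear MAPK phosphatase, and the region shown, chr17:26508520-26508722 on the minus strand, lies before its inner start and not before its outermost 5′ end. Capitals mark a match to the cyclic AMP response element (CRE) letters TGACGTCA.
Dusp1: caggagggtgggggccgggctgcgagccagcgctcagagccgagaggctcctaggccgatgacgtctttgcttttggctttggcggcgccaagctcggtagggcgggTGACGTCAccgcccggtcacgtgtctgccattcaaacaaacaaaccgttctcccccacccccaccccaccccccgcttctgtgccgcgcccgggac
Dusp6 encodes a cytoplasmic phosphatase of ERK, and its upstream region is chr10:99262981-99263230 on the plus strand. Capitals mark the 48 bases that lay under the replicated list, which here began before the start of the gene.
Dusp6: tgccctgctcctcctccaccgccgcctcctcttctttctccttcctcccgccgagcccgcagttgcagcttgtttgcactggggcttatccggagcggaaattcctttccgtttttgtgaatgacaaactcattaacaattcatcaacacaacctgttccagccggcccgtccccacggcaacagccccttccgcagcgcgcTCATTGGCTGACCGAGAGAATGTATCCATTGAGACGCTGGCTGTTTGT

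The H3K79me2 mark lay over the start of 39 of the 70 genes (55.7%), where 30.3% of all coding genes were marked. It was present at 30 of the 46 kinase genes and at 9 of the 24 phosphatase genes. Replicate 1's list marked 33 genes, against 27.2% of all coding genes, and replicate 2's list marked 41, against 35.6%. The pooled list also marked 41 (34.3% of all coding genes). All 33 genes marked in replicate 1 were marked in replicate 2 as well. In the 39 marked genes the pooled list covered the same bases of the first 3 kb as the replicated list, so only the replicate lists are given beside it from here on. Of the 31 unmarked genes, 28 had no base under the replicated list anywhere in the gene, and 26 had none under any of the 4 lists. Among all coding genes, 14452 of the 15280 unmarked likewise had no base under the replicated list, so this was common to unmarked genes. As 2 replicates of 1 group allow no test across conditions, the counts are descriptions, and the members, which include neighbours on a chromosome and genes that share bases with others, are not replicates of each other.

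**Figure D1:**
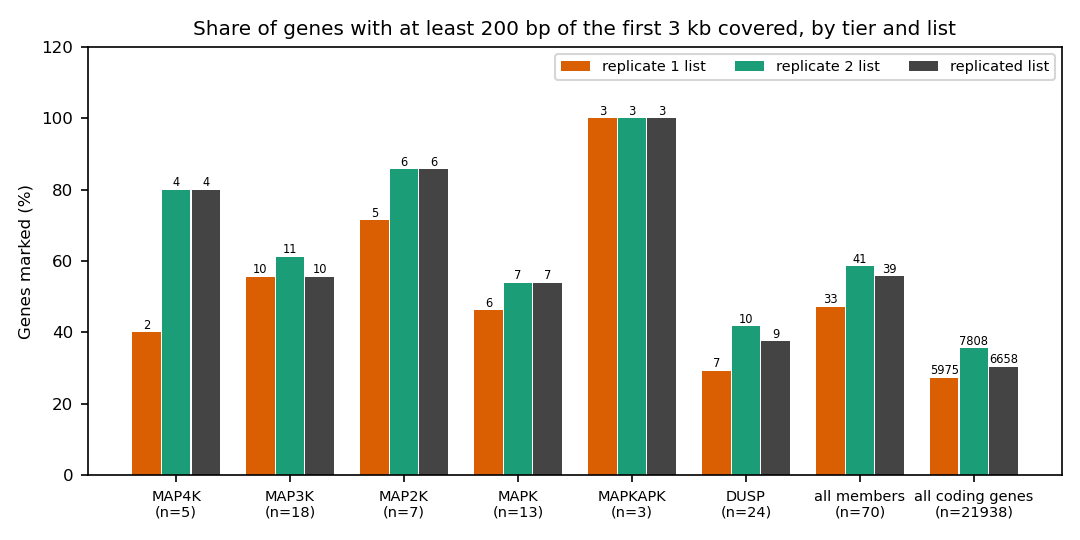
Share of genes (in percent, vertical axis) with at least 200 bp of the first 3 kb under the list of replicate 1, replicate 2 or the replicated list, for each tier of the cascade, for all 70 members and for all 21938 coding genes; the number over each bar is the number of marked genes. The 3 MAPKAPK genes were marked in every list and the 24 DUSP genes stood lowest of the tiers, with 9 marked in the replicated list.

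Among the MAP4K genes 4 of 5 were marked, against 30.3% of all coding genes, but only 2 in replicate 1, against 27.2%. Their kinases, of the Ste20 family, lie at the top of the cascade. Map4k4, an upstream activator of JNK, had 2435 bp of its first 3 kb covered in replicate 1, 2396 bp in replicate 2 and 2436 bp in the replicated list, and its longest uninterrupted block ran for 21351 bp. Map4k3 had 1978 bp in replicate 1, 2107 bp in replicate 2 and 2089 bp in the replicated list, with a longest block of 20834 bp. Both genes were marked in both replicates, but over the whole of Map4k3 replicate 1 covered 40943 bp and replicate 2 68502 bp. Map4k5 had 0 bp in replicate 1 and 2270 bp in replicate 2, with 1689 bp in the replicated list at a fold of 4.36. Map4k1, the kinase HPK1 of blood cells, had 0 bp in replicate 1, 969 bp in replicate 2 and 1048 bp in the replicated list, at a fold of 3.02, the lowest of the marked members. Of the replicate lists, replicate 2's alone marked both genes. The upstream 3 kb of Map4k1 was covered over 2723 bp, and the start of the oppositely directed gene Eif3k lies 186 bp away; their part in the value was not tested. Map4k2 had no base in any list.

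Of the 18 MAP3K genes, which receive the signal from receptors and stress sensors, 10 were marked, against 30.3% of all coding genes. Replicate 1 marked the same number, against 27.2%. Map3k1, the kinase MEKK1 upstream of JNK, stood out by fold and by length. Its first 3 kb had 1878 bp covered in replicate 1, 2299 bp in replicate 2 and 2043 bp in the replicated list, where its fold of 37.2 ranked 4 among all coding genes. A single block of 39219 bp, at rank 127 among all coding genes by length, held every covered base of the gene (chr13:111746428-111808993) and reached 64.2% of the way to its 3′ end. Ranks by fold use the peak over the first 3 kb, and for Map3k1 that rank was 1785 in replicate 1's list and 6 in replicate 2's. Replicate 1 split the coverage into several peaks, and another of its peaks in the gene had a fold of 27.6, the highest of that list.

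Map3k8, the kinase Tpl2 that links Toll-like receptors to ERK in macrophages, had 2860 bp in replicate 1, 2952 bp in replicate 2 and 2934 bp in the replicated list. Its fold was 26.5, its longest block 15602 bp, and 79.5% of the gene was covered. Map3k7, the kinase TAK1 that Toll-like, IL-1 and TNF receptors share, had 2630, 2785 and 2762 bp in the same order, in a single block of 12297 bp that ended 21.1% of the way along the gene. Both genes were thus covered at the start in both replicates, and they differed in how far the mark ran.

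Map3k2 and Map3k3, which act above ERK5 and other MAPKs, were marked in both replicates as well. Map3k2 had 2535 bp in replicate 1, 2676 bp in replicate 2 and 2585 bp in the replicated list, with a longest block of 21062 bp. Map3k3 had 2251, 2344 and 2308 bp and a fold of 26.0, with 68.7% of the gene covered. Map3k11, the mixed-lineage kinase MLK3, had 1618 bp in replicate 1, 1998 bp in replicate 2 and 1988 bp in the replicated list at a fold of 27.6, and its first covered base lay 1012 bp into the gene. Map3k14, the NF-κB-inducing kinase, was covered over 51.0% of its length. Map3k20, the ribotoxic stress kinase ZAK, had 26376 covered bases in a gene of 156974 bp, but 9713 in replicate 1 and 35595 in replicate 2.

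The stress sensor Map3k5 (ASK1) and Map3k4 (MEKK4) were marked in both replicates but differed along the gene. Map3k5 had 1968 bp of its first 3 kb covered in replicate 1 and 2501 bp in replicate 2, and over the whole gene 6381 and 38821 bp. Map3k4 had 1307 and 2499 bp in the first 3 kb and 1902 and 23775 bp over the gene, and its replicate overlap, the Jaccard index of covered bases, was 0.080, the lowest of the 38 members with a base in both replicates. Some relatives of marked MAP3Ks had no base in any list: of the ASK kinases these were Map3k6 and Map3k15, and of the mixed-lineage kinases Map3k10 and Map3k21. Map3k13 and Map3k19 had none either.

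Map3k9 and Map3k12 were unmarked at their outermost end but not bare. Map3k9, the kinase MLK1, had 0 bp of its first 3 kb under replicate 1's list, 704 bp under replicate 2's, 589 bp under the pooled list and 0 bp under the replicated list. Its 2245 bases under the replicated list began 28070 bp inside the gene. Map3k12, the dual leucine zipper kinase DLK, had 0 bp in every list at its outermost end. At an inner start 6364 bp further on, at position 102510700 of chromosome 15, it had 1334 bp in replicate 1, 2234 bp in replicate 2 and 1874 bp in the replicated list, at a fold of 3.46. None of these bases lay in the stretch that Map3k12 shares with the oppositely directed gene Pcbp2.

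**Figure D2:**
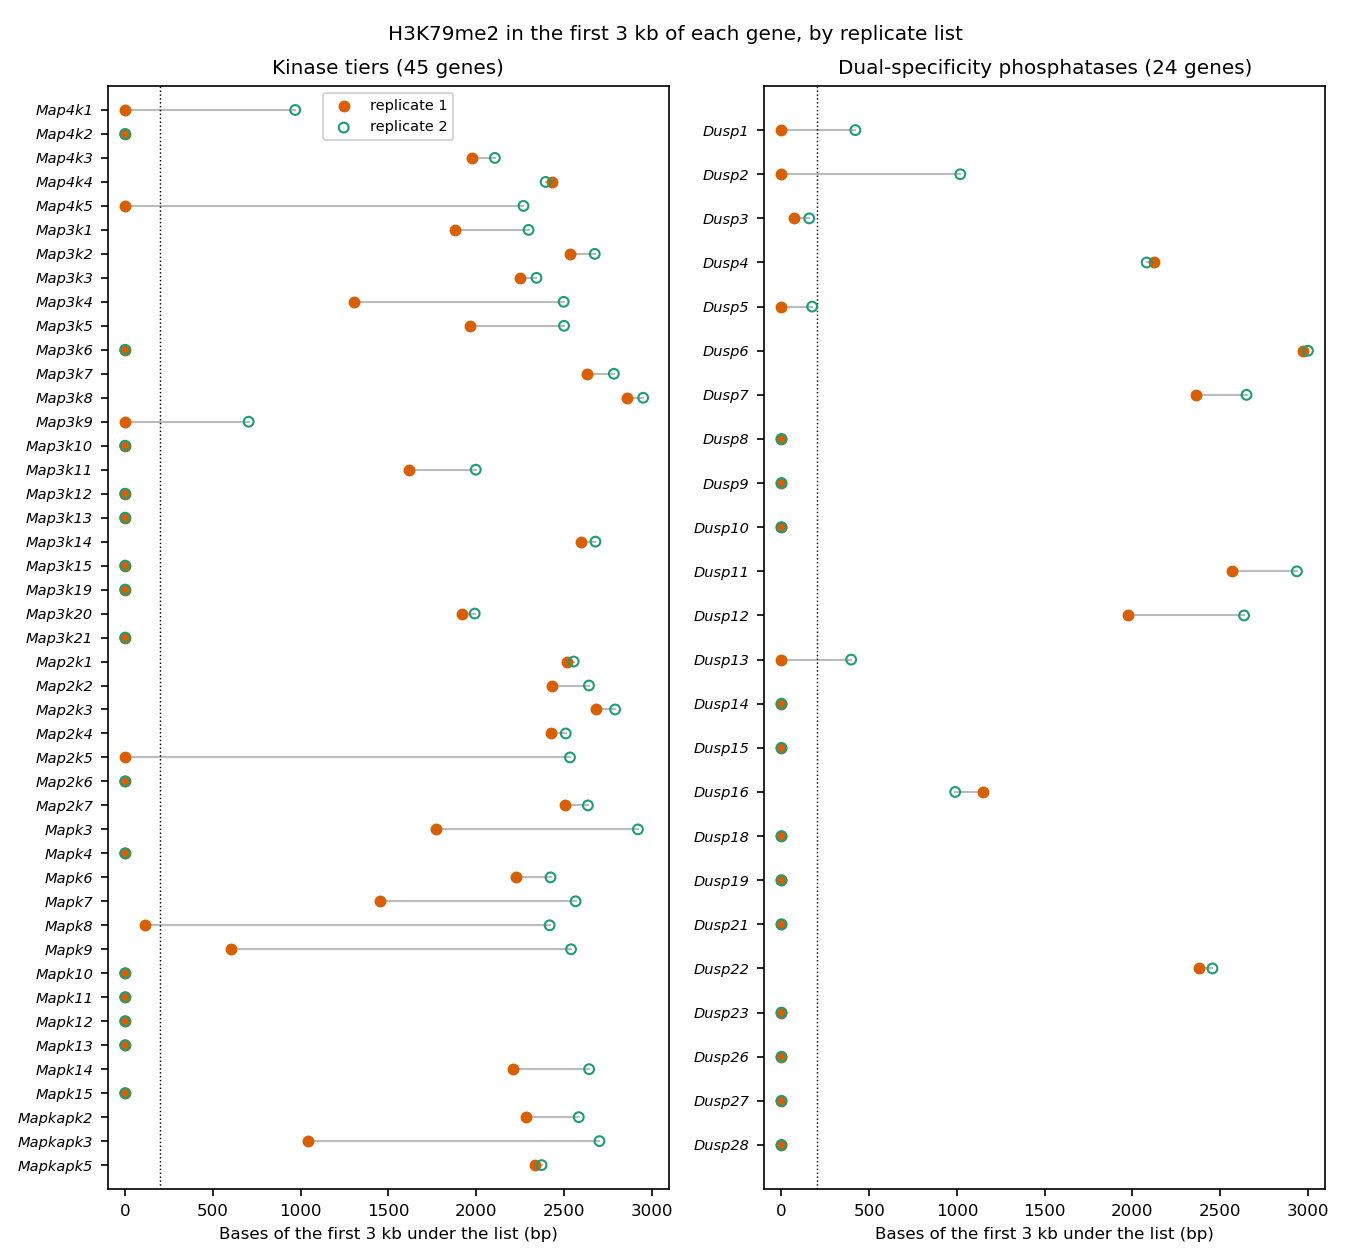
Bases of the first 3 kb under the list of replicate 1 (filled) and replicate 2 (open) for 45 kinase genes and 24 phosphatase genes, with a grey line joining the replicates and a dotted line at the 200 bp at which a gene counts as marked. Most genes lie either at 0 in both replicates or near 2500 bp in both. The longest lines belong to Map4k5, Map2k5, Mapk8 and Mapk9, whose values in replicate 2 are far above those in replicate 1. Mapkapk3, Map3k4, Mapk3, Mapk7, Map4k1 and Dusp2 are among the other genes with lower values in replicate 1.

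The MAP2K genes, the dual-specificity kinases in the middle of the cascade, were marked at 6 of 7, against 30.3% of all coding genes. Replicate 1 marked 5, against 27.2%. Map2k1 and Map2k2, the kinases MEK1 and MEK2 of the ERK branch, were marked in both replicates. Map2k1 had 2520 bp in replicate 1, 2556 bp in replicate 2 and 2572 bp in the replicated list. Map2k2 had 2432, 2643 and 2618 bp, at a fold of 27.2, but over the whole gene 4155 bp in replicate 1 and 8627 bp in replicate 2. In the p38 branch Map2k3 had 2684 bp in replicate 1, 2792 bp in replicate 2 and 2784 bp in the replicated list. Map2k6, which encodes the other p38-activating kinase, had 0 bp in every list over its 126401 bp. The p38-activating pair was thus covered on Map2k3 and not on Map2k6. In the JNK branch Map2k4 had 2427 bp in replicate 1, 2511 bp in replicate 2 and 2502 bp in the replicated list, and a longest block of 20348 bp. Map2k7 had 2506, 2637 and 2608 bp, all of it shared with an overlapping coding record on the same strand, so the bases cannot be assigned to either record. Map2k5, which activates ERK5, had 0 bp in replicate 1, 2535 bp in replicate 2 and 2643 bp in the replicated list, at a fold of 6.79.

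At the MAPK level, 7 of 13 genes were marked, against 30.3% of all coding genes, and 6 in replicate 1, against 27.2%. Each of the ERK, JNK and p38 branches had at least 1 marked gene. In the ERK branch Mapk3 (ERK1), a gene of only 6219 bp, had 1769 bp in replicate 1, 2922 bp in replicate 2 and 2912 bp in the replicated list, at a fold of 9.72. It was marked in both replicates, with fewer bases in replicate 1.

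In the JNK branch, Mapk8 (JNK1) was marked by replicate 2 alone among the replicate lists. It had 115 bp in replicate 1, 2419 bp in replicate 2 and 2362 bp in the replicated list, and over the whole gene 2833, 29518 and 19821 bp. Mapk9 (JNK2) had 605 bp in replicate 1, 2541 bp in replicate 2 and 2497 bp in the replicated list. Their folds in the replicated list were 6.37 and 9.30, below the median of 11.9 over all marked coding genes. Mapk10 (JNK3), a kinase best known from the nervous system, had 0 bp in every list over its 303387 bp. Over the JNK genes replicate 1 covered 15.5% as many bases as replicate 2.

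The p38 genes lie as 2 pairs of neighbours, and 1 of the 4 was marked. This share of 25% is near the 30.3% of all coding genes. Mapk14 (p38α, chr17:28691329-28748406) had 2213 bp in replicate 1, 2644 bp in replicate 2 and 2644 bp in the replicated list, and 33377 bases over the gene (58.5%). Mapk13 (p38δ), which starts 20890 bp after the end of Mapk14, had 0 bp in every list. Mapk11 (p38β) and Mapk12 (p38γ), which lie 1782 bp apart on chromosome 15, had 0 bp in every list as well. All 4 had a CpG-rich start by the thresholds given further on, but not to the same degree. The CpG ratio (observed over expected) around the start was 0.848 at the marked Mapk14. It was 0.681 at Mapk11, 0.631 at Mapk12 and 0.604 at Mapk13, the last just above the minimum of 0.6. A link between base composition and the mark was not tested.

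The remaining MAPK genes are Mapk7 (ERK5) and the atypical kinases. Mapk7, a gene of 5595 bp, had 1453 bp in replicate 1, 2567 bp in replicate 2 and 2562 bp in the replicated list, at a fold of 8.71. Mapk6 (ERK3) had 2230, 2424 and 2400 bp, in a single block of 18645 bp at a fold of 30.6. Its close relative Mapk4 (ERK4), a gene of 136874 bp, and Mapk15 had 0 bp in every list. Of the pair ERK3 and ERK4, which share the partner kinase MK5, the mark thus lay on 1.

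**Figure D3:**
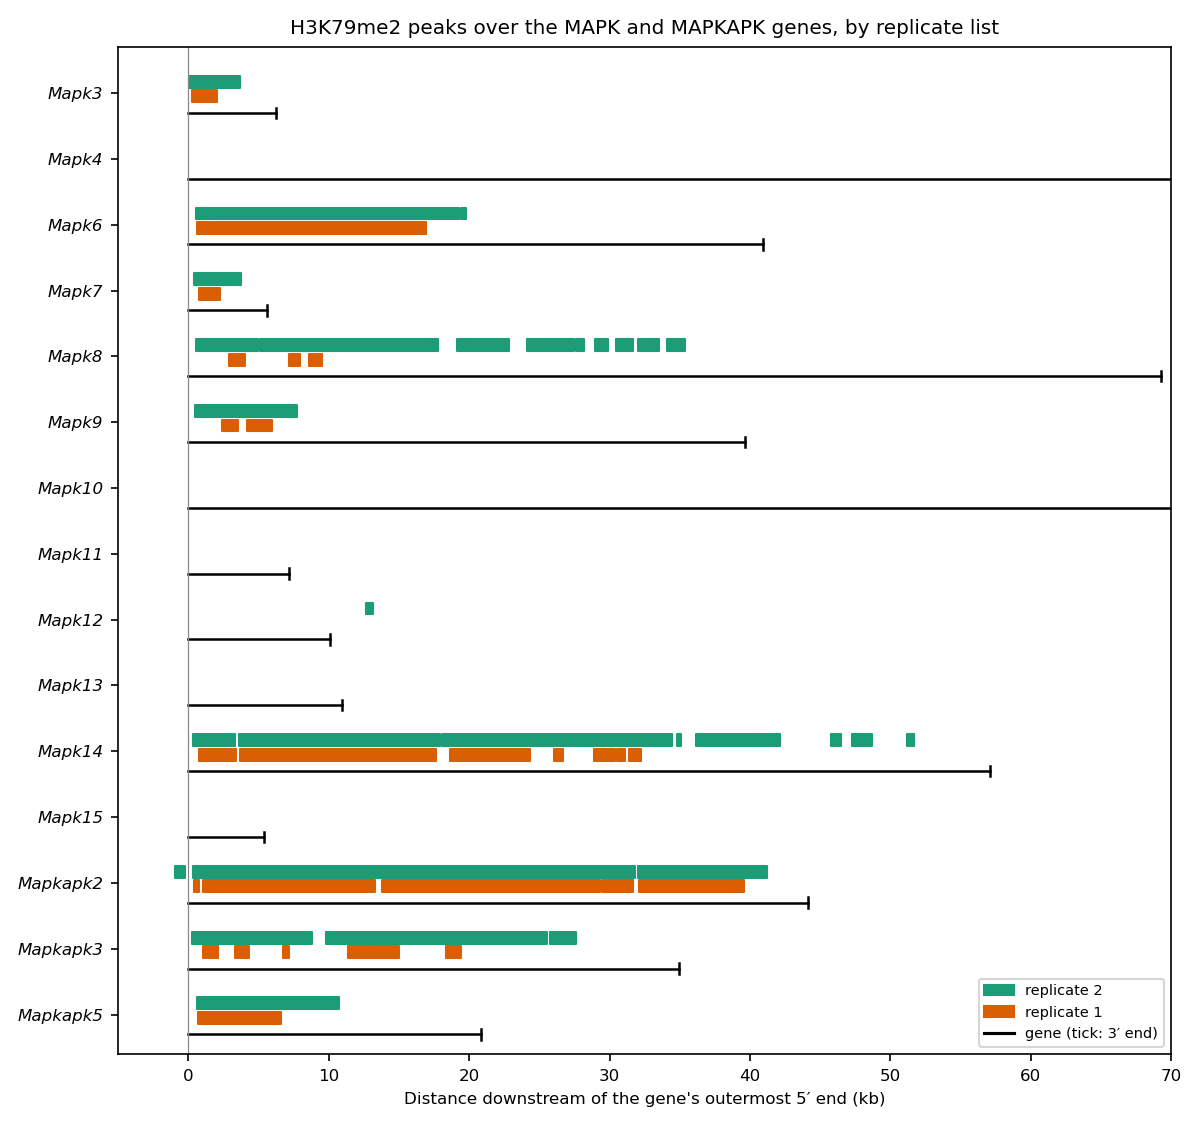
H3K79me2 peaks of replicate 2 (green) and replicate 1 (orange) over 12 MAPK and 3 MAPKAPK genes, by distance in kb downstream of the outermost 5′ end, with a black line for each gene and a tick at its 3′ end; the lines of Mapk4 and Mapk10 run past the axis. In the 9 marked genes shown coverage lies mostly inside the gene and ends before the 3′ end, replicate 1 covers less than replicate 2 in each of them, and Mapk4, Mapk10, Mapk11, Mapk13 and Mapk15 are bare.

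All 3 MAPKAPK genes were marked in both replicates, against 27.2% of all coding genes in replicate 1 and 35.6% in replicate 2. Mapkapk2 encodes MK2, the p38 target that controls the stability of cytokine mRNAs through tristetraprolin. It had 2287 bp in replicate 1, 2585 bp in replicate 2 and 2520 bp in the replicated list, and 92.4% of the gene (chr1:131053700-131097826) was covered. Its fold of 36.8 ranked 5 among all coding genes, and its longest block ran for 30812 bp. By the peak over the first 3 kb the rank was 21 in replicate 2's list and 1058 in replicate 1's, where the highest fold anywhere in the gene was 26.3. Mapkapk3 (MK3) had 1042, 2703 and 2442 bp and a longest block of 15659 bp. The replicates differed on Mapkapk3, with 7083 covered bases over the gene in replicate 1 and 26127 in replicate 2. Mapkapk5 (MK5) had 2337, 2373 and 2374 bp, all shared with 2 overlapping coding records on the same strand.

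The MAPK phosphatases, the DUSPs that bind and inactivate MAPKs, were marked at 5 of 10, against 30.3% of all coding genes. In replicate 1 4 of them were marked, against 27.2%. Among the 5 is Dusp1, which counts through bases shared with a neighbour. The 2 marked cytoplasmic phosphatases, which act on ERK, were covered almost end to end in both replicates. Dusp6 (4259 bp) had 2974 bp of its first 3 kb in replicate 1, 3000 bp in replicate 2 and 3000 bp in the replicated list. The replicated list covered 100% of Dusp6 and ran 765 bp past its 3′ end, and the replicate overlap of 0.994 was the highest of the members. Dusp7 had 2360, 2650 and 2636 bp at a fold of 26.1, with 94.9% of the gene covered and 486 bp past its 3′ end. These were the 2 marked members whose coverage ran past the 3′ end. The third cytoplasmic phosphatase, Dusp9, had no base in any list.

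The nuclear phosphatases Dusp1, Dusp2, Dusp4 and Dusp5 are known as genes that MAPK signals induce. Dusp4 was marked in both replicates, with 2123 bp in replicate 1, 2081 bp in replicate 2 and 2124 bp in the replicated list. The replicated list covered 62.9% of Dusp4, replicate 1 55.3%, replicate 2 56.5% and the pooled list 56.7%. A block from 9093 to 9871 bp into the gene was in the replicated list and in none of the other lists. Dusp2 had 0 bp in replicate 1 and 1019 bp in replicate 2, and 800 bp under the pooled list, but none under the replicated list. Dusp5 had 0 bp in replicate 1 and 175 bp in replicate 2, under the 200 bp that count as marked. Coverage of Dusp2 and Dusp5 was therefore seen in replicate 2 and not in replicate 1.

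Dusp1 was marked at its outermost annotated 5′ end by bases that it shares with a neighbour. That end, at position 26562128 of chromosome 17, lies in the gene Ergic1, which runs the opposite way. The window there had 0 bp in replicate 1, 421 bp in replicate 2 and 401 bp in the replicated list, and all 401 bp lay in the stretch that the genes share. The 3 kb upstream of that end were covered throughout. At the inner start at 26508519, 53609 bp further along and just after the promoter shown above, Dusp1 had 1437 bp in replicate 1, 1828 bp in replicate 2 and 1803 bp in the replicated list, at a fold of 8.04. At this inner start the mark was present in both replicates.

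Of the phosphatases that prefer JNK and p38, Dusp16 was marked and Dusp8 and Dusp10 had no base in any list. Dusp16 had 1151 bp in replicate 1, 990 bp in replicate 2 and 1452 bp in the replicated list. Over the whole of Dusp16, however, replicate 1 covered 5593 bp and replicate 2 17122 bp. Its first covered base in the replicated list lay 1548 bp into the gene, the farthest of the marked members. The unmarked Dusp8 promoter also held the CRE letters, as did that of Mapk10.

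The atypical DUSPs are small phosphatases that lack the MAPK-binding region, and 4 of 14 were marked (28.6%, against 30.3% of all coding genes): Dusp11, Dusp12, Dusp13 and Dusp22. Dusp11, a phosphatase of RNA 5′ ends, had 2568 bp in replicate 1, 2937 bp in replicate 2 and 2932 bp in the replicated list. Dusp12 had 1975, 2636 and 2451 bp, and Dusp22, which acts on the JNK pathway, 2380, 2456 and 2494 bp. These 3 were covered in both replicates. Dusp13 had 0 bp in replicate 1, 397 bp in replicate 2 and 383 bp in the replicated list, at a fold of 30.7. All 383 bp lay in the stretch that it shares with the oppositely directed gene Samd8, the 3 kb upstream were covered throughout, and every other annotated start of Dusp13 had 0 bp. Dusp3 (VHR), which dephosphorylates ERK and JNK, was unmarked by the rule and yet well covered. At its outermost end it had 71 bp in replicate 1, 158 bp in replicate 2 and 151 bp in the replicated list. At the start at 101984799, 2214 bp further in, it had 2285, 2372 and 2365 bp, at a fold of 27.1, and 63.3% of the gene was covered. Dusp14, Dusp15, Dusp18, Dusp19, Dusp21, Dusp23, Dusp26, Dusp27 and Dusp28 had no base in any list.

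**Figure D4:**
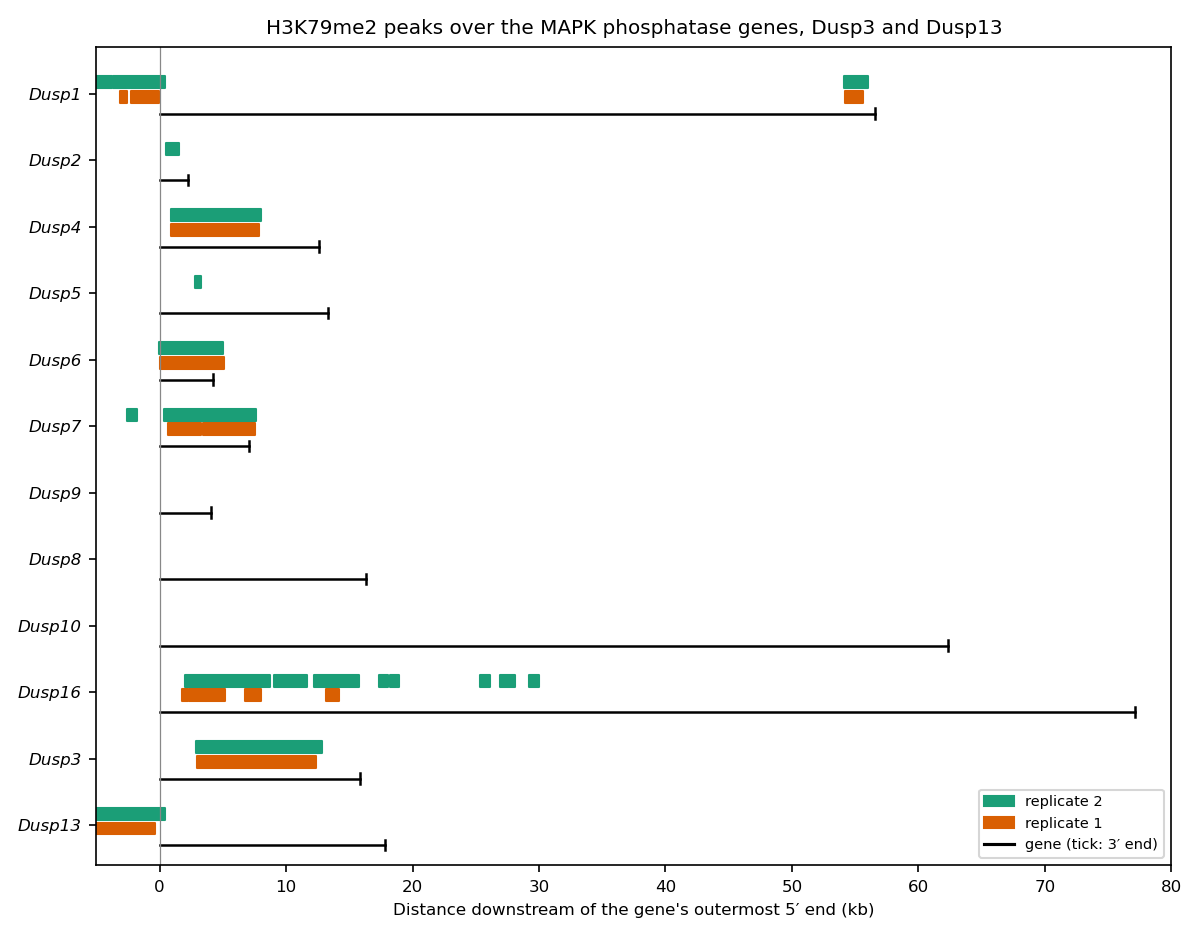
H3K79me2 peaks of replicate 2 (green) and replicate 1 (orange) over the 10 MAPK phosphatase genes and the atypical Dusp3 and Dusp13, by distance in kb downstream of the outermost 5′ end, with a black line for each gene and a tick at its 3′ end; peaks left of 0 lie upstream. Dusp6 and Dusp7 are covered to and past their 3′ ends, Dusp1 has separate peaks around its outermost end and just after the inner start that lies 53609 bp further in, and the peak at Dusp13 lies almost wholly upstream of it.

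When a start of any annotated transcript was allowed, 41 of the 70 genes were marked, against 32.9% of all coding genes, the added genes being Map3k12 and Dusp3. Without Map4k1, Dusp1 and Dusp13, whose upstream 3 kb were also covered, 36 of 67 were marked. Such upstream coverage was counted at 7.69% of the marked members and at 19.5% of all marked coding genes. The share of all coding genes marked after the same exclusion was not computed, so 36 of 67 has no matching background. The lowest covered count among the marked genes was the 383 bp of Dusp13, and the highest count among the unmarked was the 151 bp of Dusp3.

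The members marked in 1 replicate alone were all marked in replicate 2. Marking in replicate 2 and not in replicate 1 was found at 8 of the 70 genes, where 8.41% of all coding genes did so: Map4k1, Map4k5, Map3k9, Map2k5, Mapk8, Dusp1, Dusp2 and Dusp13. Marking in replicate 1 alone was found at 0 genes, against 0.0593% of all coding genes. Over whole genes, replicate 2 covered more bases than replicate 1 in all 44 members with a base in replicate 2. Among all coding genes, 8587 had more bases in replicate 2 and 125 had more in replicate 1, so this was general to the lists. In the first 3 kb, Map4k4, Dusp4 and Dusp16 had more bases in replicate 1. Summed over the members, replicate 1 covered 60.1% as many bases as replicate 2, against 56.0% over all coding genes. Of replicate 1's bases in the members, 99.6% lay inside those of replicate 2, against 99.3% over all coding genes. The Jaccard index was 0.597 over the members and 0.553 over all coding genes. It was at least 0.8 in 14 genes, among them Mapkapk2, Map2k1, Mapk6 and Dusp4. In 4 of the marked genes, Map4k1, Map4k5, Map2k5 and Dusp13, the replicated list held bases although replicate 1's list had none anywhere in the gene. How peaks entered the replicated list was not given in the sources used here.

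The mark began inside the genes and thinned out along them. Among the 39 marked genes, 23.7% of bases were covered in the first 500 bp, 94.6% between 1500 and 2000 bp, 78.4% between 5000 and 6000 bp and 59.7% between 10000 and 15000 bp. Over all 6658 marked coding genes the same shares were 34.2%, 90.2%, 61.2% and 42.9%. Only genes that reach a stretch enter its share, so the last 2 shares rest on 37 and 31 of the marked members and on 5847 and 4405 of all marked coding genes. The median first covered base lay 438 bp from the outermost end, against 377 bp over all marked coding genes. A median of 44.4% of the gene was covered in the marked members and 33.9% in all marked coding genes, and the median longest block was 8198 bp against 5066.5 bp. Blocks of at least 20 kb were found at 7 of the 70 genes, against 3.08% of all coding genes, among them Map3k1, Mapkapk2, Map4k4, Map3k2, Map4k3 and Map2k4. The members were longer as well, with a median gene length of 24875 bp against 17425 bp. Most covered bases were intronic, since a median of 2.41% of a marked member's covered bases lay in its exons. The share was highest in Dusp6, at 73.5%.

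**Figure D5:**
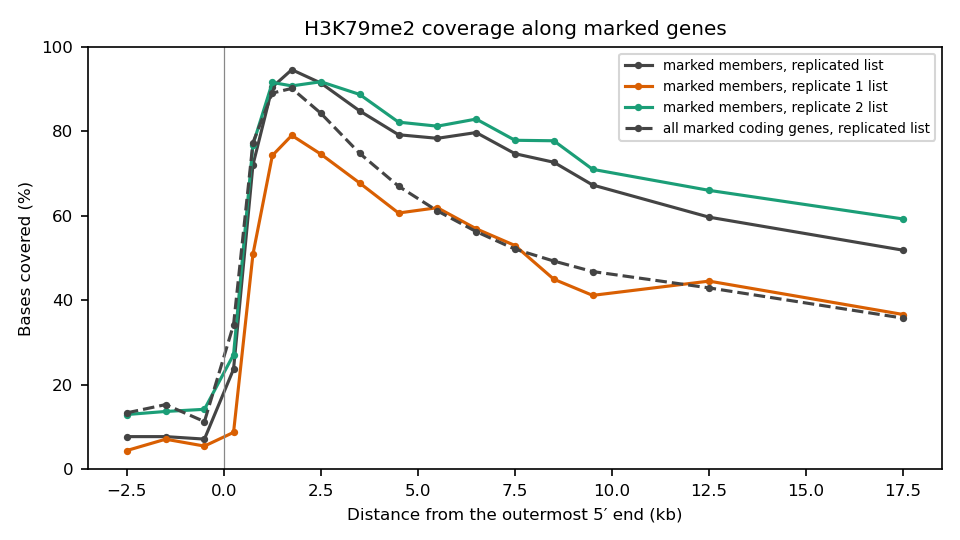
Share of bases covered (in percent, vertical axis) by distance in kb from the outermost 5′ end for the 39 marked members under the replicated list (black), replicate 1 (orange) and replicate 2 (green), and for all 6658 marked coding genes under the replicated list (dashed). Coverage of the marked members reaches 94.6% between 1500 and 2000 bp and stays above the dashed line up to 20 kb.

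The marked genes differed from the unmarked in length and in the sequence at the start. Marked members had a median length of 47711 bp and unmarked members one of 15317 bp. Over all coding genes the medians went the same way, with 24425 bp for marked and 14308 bp for unmarked genes. Among members of 10 to 30 kb 43.5% were marked, against 36.1% of all coding genes of that length, and among those of 30 to 60 kb 81.8%, against 41.9%. Among members of at least 60 kb 68.2% were marked, against 32.4%, and among those under 10 kb 35.7%, against 19.3%. CpG-rich starts were those with a CpG ratio (observed over expected) of 0.6 or more and a GC content of 50% or more within 500 bp in either direction. CpG-rich starts were found at 54 of the 70 members (77.1%) and at 44.4% of all coding genes. Of the members with such a start 37 were marked (68.5%), against 54.1% of all coding genes with one. Of the 16 members without one, Mapkapk3 and Dusp1 were marked (12.5%), near the 11.4% of all coding genes without one. The CpG-poor start of Dusp1 is the outermost end that it shares with Ergic1. The 17 unmarked members with a CpG-rich start included Mapk11, Mapk12, Mapk13, Dusp2 and Dusp5.

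RefSeq promoters were available for 55 of the 70 members, 71 in all, among 32851 promoters. In the 250 bases upstream of the start, 8 motifs were searched on both strands by their letters. The GC box, GGGCGG, was found in 54.9% of the members' promoters and 32.7% of all promoters. The CCAAT letters were found in 32.4% and 33.8%, the AP-1 letters TGANTCA in 5.63% and 6.75%, and the CRE letters in 4.23% and 1.55%. The PU.1 letters were found in 4.23% and 2.44%, the ETS letters CCGGAAGT in 2.82% and 2.88%, TATAAA in 4.23% and 12.4%, and the serum response element in 1.41% and 1.47%. Besides Mapkapk2, the PU.1 letters were found in the promoters of Map3k3, which was marked, and Dusp5, which was not. The CRE letters, found in 3 promoters, belonged to the marked Dusp1 and to the unmarked Dusp8 and Mapk10. Both motifs were thus found in marked and in unmarked genes.

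Other genes, of the pathway or related to it, were taken from 7 lists of 100 symbols, 2 of which have 2 coding records each. Of the 102 records 66 were marked (64.7%), against 30.3% of all coding genes. The symbols with 2 records, Ddit3 and Ptp4a1, were marked in both records by shared bases, so each counts 2 times. In replicate 1 63 were marked, against 27.2%, and in replicate 2 70, against 35.6%. The counts of the single lists that follow are from the replicated list, with the same 30.3% as background. Among Ras proteins and their adaptors 11 of 16 were marked. Grb2, which couples receptor tyrosine kinases to Ras, was covered over 62511 bp (96.8% of the gene), and Nf1, which switches Ras off, over 50637 bp, whereas Rras and Rras2 had none. Of the Raf kinases and other kinases at the MAP3K level 5 of 9 were marked, with 73687 bp covered at Taok3, while Mos had none. Araf, unmarked at its outermost end, had 1201 bp in the gene. Of the other Ste20 kinases 5 of 9 were marked, but 3 in replicate 1, against 27.2% of all coding genes. The most covered were Stk24 with 74319 bp and Stk4 with 43700 bp. Stk4 was not marked in replicate 1, with 161 bp of its first 3 kb there, 517 bp in replicate 2 and 479 bp in the replicated list. Over the whole of Stk4 replicate 1 covered 17380 bp and replicate 2 58862 bp. Tnik had none, and Stk3 was unmarked at its outermost end with 13146 bp inside.

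The scaffolds and regulators were marked at 12 of 19. Spred2 and Spred1, which restrain the activation of Raf, had 68947 and 57962 covered bases, and the JNK scaffold Mapk8ip1 had none. Tab3, a TAK1-binding protein, had none in the replicated list or in replicate 1, but 2195 bp of its first 3 kb in replicate 2. Of the other downstream kinases 5 of 9 were marked, with 16364 bp at Rps6ka5 (MSK1) and 16238 bp at Mknk1. Rps6ka1 and Rps6ka3 were unmarked at the outermost end but had 6421 and 25608 bp inside. The transcription factors that MAPKs phosphorylate or induce were marked at 17 of 22 records. Mef2a had 114771 bp and Elk3 28137 bp, and Jund and Fosb had none. Among other phosphatases 11 of 18 records were marked, with 41367 bp at Ppm1b and 40118 bp at Ssh2, while Ptpn5 and Ptprr had none. That list is broad and also holds Ssh, Ptp4a, Rngtt and Epm2a genes, which are not MAPK phosphatases.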

How the data were processed

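H3K79me2 ChIP-seq of 1 group of 2 replicates was analysed from 4 peak lists on mm10, made by the authors, per the file headers and labels. Each peak carries the authors' fold over control (a ratio), −log10 p and −log10 q, and a display score that was not used. Aligner, peak caller, thresholds and the making of the replicated list: not given in the sources used here. No list gives counts, so depth is unknown and no interval was computed. All 111 peaks over the members in the replicated list had a deposited q of at most 0.05.

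Overlapping peaks of a list were joined and compared with GENCODE M21 genes with Python 3.11.15 and numpy 2.4.6. Base composition was read from RefSeq GRCm38.p6. No statistical test was run: 2 samples of 1 group allow none across conditions. The members, lists, subgroups and named-gene rule were chosen with earlier results of these data known. The text gives values for all MAPK and MAP2K genes, the 10 highest folds, the 10 longest blocks, genes whose marking differed between replicates and genes marked only at an inner start. Other pathway genes named are up to 2 marked and 2 unmarked per list. Some genes that these rules take are left out of the text and figures. Alternatives changed the base minimum, window, start, list, fold threshold and overlapping genes, and left out each replicate. The code was tested on simulated peaks.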

Additional observations from a re-analysis of the deposited data

How the results depend on the processing

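Of 96 alternative values over the counts of marked genes, the medians and the replicate overlap, 90 stayed within 1.5 times a count, the spread between replicates for a median, or 0.05 for the overlap index, a tolerance set by hand, and 6 did not. The count of marked MAP4K genes went from 4 to 2 with a window of 1 kb, without replicate 2, and when only peaks of median fold or higher were kept. The median share of the gene covered, 44.4%, was 31.3% without replicate 2 and 46.3% without replicate 1, and the median first covered base, at 438 bp, lay at 620 bp and 444 bp. The replicate overlap was 0.748 over the first 3 kb in place of 0.597 over whole genes. The cause of these shifts was not tested. The members marked, 39 of 70, ranged from 31 when only those peaks were kept, where 22.3% of all coding genes were marked, to 41 without replicate 1, and were 29 of 53 among genes that overlap no other coding gene (28.0% of all such genes). Without replicate 2 they were 33. Leaving out Map4k1, Dusp1 and Dusp13, an alternative chosen after seeing the data, gave 36 of 67, with no matching share over all coding genes. No paired analysis was possible because the 2 replicates form 1 group. Without read counts, a gene with no peak in replicate 1 cannot be told apart from a weakly marked gene in a list that covers less of the genome.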
